A study of Homo sapiens with 2 samples.

Results

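The genes described here are the D and E cyclins, their kinases and the kinases' inhibitors: CCND1, CCND2, CCND3, CCNE1, CCNE2, CDK4, CDK6, CDKN1A, CDKN1B and CDKN2A. They were chosen by symbol in the authors' gene table, not by any measured value, and all 10 were found among 36027 genes. The cells were SK-N-BE(2)-C, an established human neuroblastoma line with amplified MYCN, made to carry HRASV12, a constantly active form of the small GTPase HRAS, under doxycycline control (SK-N-BE(2)-C-pIND-HRASV12). Cells of the induced library received 100 ng/ml doxycycline over 13 days, and the control library came from the same engineered line left untreated over that time. Both groups thus carried the construct, no library had doxycycline without it, and an effect of the drug itself cannot be told apart from one of HRASV12. The labels do not say whether the line was 1 clone. Each group was 1 library, so there was no replicate check and nothing was tested. Differences describe the 2 libraries alone. All intervals are 95% intervals, for counting error only or, where shares of cells are given, for the number of cells only.

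D cyclins bind CDK4 or CDK6, and these kinases phosphorylate the retinoblastoma protein RB, which then releases E2F transcription factors. E2F factors switch on genes of DNA replication and the E cyclins, which drive CDK2 at the start of S phase. Growth signals through RAS and the MAPK cascade are known to raise transcription of CCND1. Inhibitors hold the kinases back: CDKN1A (p21) and CDKN1B (p27) bind cyclin-kinase complexes, and CDKN2A encodes both p16, which blocks CDK4 and CDK6, and ARF. Counts from the 3′ end do not tell the p16 and ARF transcripts apart.

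The induced library held 666 cells and 80359736 counts, and the control library 956 cells and 95350640 counts. Levels are given in CPM, the usual scaling of counts by the library total. HRAS stood at 161 CPM in induced and 109 CPM in control cells, a log2 ratio of 0.55, and 3′ counts can miss the transgene. Adrenergic neuroblastoma markers such as PHOX2A, GATA2 and GATA3 were present in both libraries, but TH was nearly absent (92 induced and 345 control counts). Of the markers found, no immune, erythroid or Schwann cell marker reached 10 CPM. The libraries differed in cell quality measures: the mitochondrial percent had a 5th percentile of 1.44 in induced and 8.52 in control cells, and MALAT1, a nuclear RNA, one of 33.6 and 238 CPM. Endothelial markers summed to 78.4 CPM in induced and 106 CPM in control cells, fibroblast markers to 85.5 and 41.6 CPM, and epithelial markers to 46.6 and 27.2 CPM. Of these markers 2 of 10 endothelial, 2 of 8 fibroblast and 2 of 6 epithelial genes reached 10 CPM. Within a list they did not move together: EGFL7 stood at 53.4 CPM in induced and 96.4 CPM in control cells but ESAM at 10.7 and 3.22 CPM, and LUM at 64.5 and 18.5 CPM but PDGFRB at 6.46 and 16.3 CPM, while KRT18 (19.2 and 4.69 CPM) and KRT19 (17.0 and 12.6 CPM) were both higher. Without the 5% of cells highest in endothelial markers CCND1 had a log2 ratio of 0.85 (0.84 with them) and CDK6 one of -1.18 (-1.15 with them). The part of the fibroblast and epithelial markers in the results was not tested.

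CCND1 (ENSG00000110092.3), a D cyclin and known target of RAS signalling, was higher in the induced library. It stood at 808 CPM (802 to 814) in induced and 450 CPM (446 to 455) in control cells, from 64917 and 42938 counts, a ratio of 1.79 (1.77 to 1.82). CCND3, a second D cyclin, stood at 46.6 CPM in induced and 34.5 CPM in control cells, a ratio of 1.35 (1.29 to 1.42) that did not reach 1.5-fold. A quality limit kept the cells above the control library's 5th percentiles of both quality measures, 406 of 666 induced and 871 of 956 control cells. Within it the log2 ratio of CCND3 was 0.11, against 0.42 in all cells, while that of CCND1 was 1.04, against 0.84. CCND2, the remaining D cyclin, was almost without counts, with 8 in induced and 1 in control cells, and its ratio of 9.49 had an interval of 1.27 to 421.

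Both E cyclins, the partners of CDK2, were lower in the induced library. CCNE1 (ENSG00000105173.14) stood at 5.60 CPM (5.09 to 6.14) in induced and 11.7 CPM (11.0 to 12.4) in control cells, a ratio of 0.479 (0.428 to 0.535). CCNE2 stood at 1.83 and 4.75 CPM, from 147 induced and 453 control counts, a ratio of 0.385 (0.317 to 0.465), and was under the 10 CPM needed to be called measured. Among the 10 genes the E cyclins had the highest ratios of S phase over other cells in both libraries, given with the phases. The window around the CCNE1 start site, from 250 bases before to 50 after (RefSeq, GRCh38.p14, chr19:29811741-29812040, plus strand), is shown as the promoter of a gene with that S phase pattern. Capitals mark its 7 GC boxes (GGGCGG on either strand), the binding letters of SP family factors.
CCNE1 promoter: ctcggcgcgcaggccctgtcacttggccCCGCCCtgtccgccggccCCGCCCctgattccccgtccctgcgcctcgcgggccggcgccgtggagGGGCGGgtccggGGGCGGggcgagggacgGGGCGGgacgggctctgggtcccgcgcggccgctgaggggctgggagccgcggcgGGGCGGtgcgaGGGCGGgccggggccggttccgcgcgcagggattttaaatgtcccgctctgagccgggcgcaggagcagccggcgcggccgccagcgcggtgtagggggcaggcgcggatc
An E2F motif (TTTGGCGC, TTTCCCGC, TTTGCCGC or TTTCGCGC, either strand) was found in 0 of 11 such windows for the 7 genes that RefSeq's table holds, against 3.31% of 35116 windows in the table. These letters cover part of the sequences E2F factors bind, so no match says only that they are not in these windows. The GC box was in 8 of the 11 windows, against 45.0% of all. No promoter entry was matched for CCND1, CCND2 and CCNE2.

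Of the kinases, CDK6 was much lower in the induced library while CDK4 was close to level. CDK6 (ENSG00000105810.9) stood at 111 CPM (109 to 113) in induced and 248 CPM (245 to 252) in control cells, from 8928 and 23680 counts, a ratio of 0.447 (0.437 to 0.458). CDK4 stood at 40.0 CPM (38.6 to 41.4) and 45.6 CPM (44.3 to 47.0), a ratio of 0.876 (0.836 to 0.917). Within the quality limit the log2 ratio of CDK6 was -0.83, against -1.15 in all cells, and it was past 1.5-fold under each of the 13 processing alternatives tried.

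None of the 3 inhibitors passed 1.5-fold in all cells. CDKN1A stood at 29.5 CPM (28.4 to 30.8) in induced and 21.0 CPM (20.1 to 21.9) in control cells, a ratio of 1.41 (1.32 to 1.49). Its log2 ratio was 0.47 and ranged from 0.29 to 0.63 over the 13 alternatives. It passed 1.5-fold in 1 of them, with DESeq2 size factors (log2 ratio 0.63). CDKN1B stood at 33.9 and 36.2 CPM, a ratio of 0.937 (0.891 to 0.986) whose direction turned under 4 of 13 alternatives, TMM and DESeq2 scaling among them. CDKN2A (ENSG00000147889.17) stood at 522 CPM (517 to 527) in induced and 523 CPM (518 to 527) in control cells, a ratio of 0.998 (0.986 to 1.01) whose direction also turned under those scalings. Together, 1 of the 8 measured genes, CCND1, was at least 1.5-fold higher, where 10.3% of all 9017 measured genes were, so the higher count is near the background. CCNE1 and CDK6 made 2 of 8 at least 1.5-fold lower, where 7.73% of all measured genes were. CCNE1 counted as measured through the control library alone (11.7 CPM, against 5.60 CPM in induced cells), so its place in this count depends on that floor. The median log2 ratio was -0.05 over the 8 genes and -0.04 over all measured genes.

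**Figure D1:**
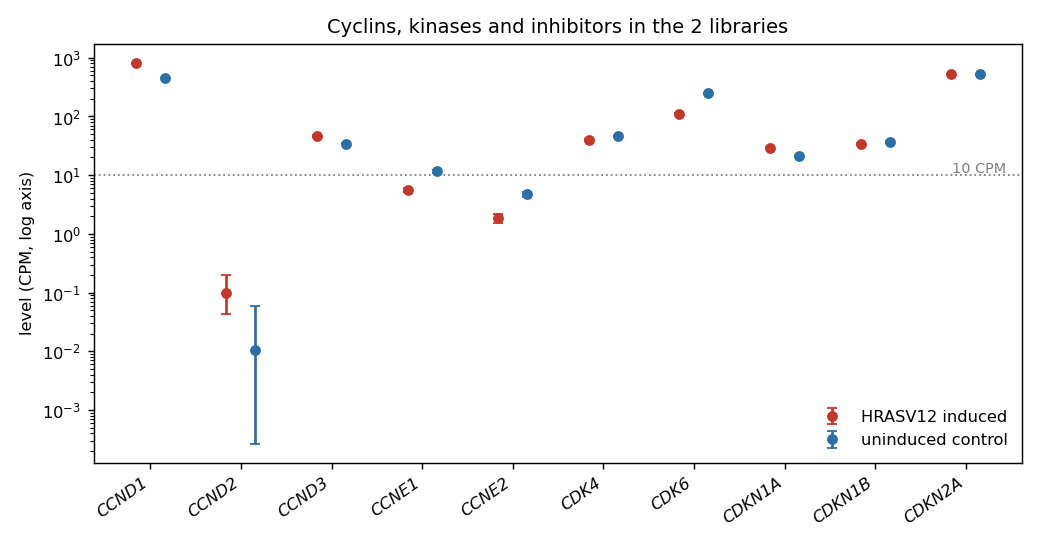
Level of each gene in the induced (red, left) and control (blue, right) library, in CPM on a log axis, with exact 95% Poisson intervals where wider than the point. CCND1 is higher in the induced library (808 and 450 CPM), CDK6, CCNE1 and CCNE2 are lower, CDKN2A is level (522 and 523 CPM, with a direction that turns under TMM and DESeq2 scaling), and CCND2 has 8 and 1 counts. The axis serves to compare libraries, not genes.

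The phase of each cell was called from 42 S phase and 54 G2/M phase genes that include none of the 10 genes, with each cell thinned at random to 53000 counts. Cells with neither score above 0 are called neither-phase cells here, and resting and G1 cells are not told apart among them. Of 562 induced cells, 63 (11.2%) were in S, 145 (25.8%) in G2/M and 354 (63.0%, interval 58.8 to 67.0) in neither phase. Of 766 control cells, 251 (32.8%) were in S, 358 (46.7%) in G2/M and 157 (20.5%, 17.7 to 23.5) in neither phase. The intervals do not cover the choice of scoring, and the induced share moved with it, as given with the processing alternatives. Genes outside the phase lists separated with these calls: CCNA2, a cyclin of S and G2, stood at 12.2, 77.6 and 137 CPM in neither-phase, S and G2/M cells of the induced library and at 14.0, 61.3 and 136 CPM in those of the control library. In that order of phases the median counts per cell were 120442, 102054 and 137908 in induced and 82620, 95912 and 126593 in control cells. Calls of this kind can also be reached by free RNA, whose level was not tested.

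CCND1 was higher in induced cells of every phase. It stood at 804 CPM in neither-phase, 818 CPM in S and 846 CPM in G2/M cells of the induced library, against 530, 446 and 419 CPM in those of the control library. The induced over control ratio was 1.52 (1.48 to 1.55) in neither phase, 1.84 (1.78 to 1.89) in S and 2.02 (1.98 to 2.06) in G2/M. In the control library the level was lower in S and G2/M than in neither phase, G2/M over neither phase being 0.791 (0.770 to 0.812), while in the induced library this ratio was 1.05 (1.03 to 1.07). Within the quality limit it was 0.927 in induced and 0.797 in control cells. At equal depth the mean CCND1 count per cell was 46.3 in neither-phase and 44.0 in G2/M cells of the induced library. In the control library these means were 29.6 and 22.7. The induced rise in G2/M was thus in the pooled counts and not in the mean per cell. The lowest level in any induced phase was above the highest in any control phase. In neither-phase cells the log2 ratio of CCND1 was 0.60, and 0.45, under 1.5-fold, with totals that leave out ribosomal protein and mitochondrial genes.

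CCND3 showed its largest gap in neither-phase cells. It stood at 47.4, 51.9 and 42.5 CPM in neither-phase, S and G2/M cells of the induced library and at 25.7, 41.8 and 34.3 CPM in those of the control library. The induced over control ratio was 1.84 (1.66 to 2.05) in neither phase and 1.24 in both other phases. In neither-phase cells the log2 ratio was 0.49 within the quality limit, which is under 1.5-fold, against 0.86 in all of them. S over neither phase was 1.09 (0.979 to 1.22) in induced and 1.63 (1.45 to 1.83) in control cells.

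The E cyclins were concentrated in S phase in both libraries. CCNE1 stood at 4.64, 17.9 and 3.74 CPM in neither-phase, S and G2/M cells of the induced library and at 6.11, 24.4 and 6.53 CPM in those of the control library. Its ratio of S over neither phase was 3.85 (3.08 to 4.80) in induced and 3.99 (3.21 to 5.00) in control cells. CCNE2 stood at 0.585, 11.5 and 1.26 CPM in induced and at 0.965, 11.0 and 2.61 CPM in control cells, with ratios of S over neither phase of 19.7 (12.7 to 31.3) and 11.4 (6.79 to 20.6). Within S phase the ratio of CCNE2 was 1.05, with an interval of 0.813 to 1.34 that included 1, and CCNE1 was lower in the induced library, at 0.733 (0.603 to 0.885). In G2/M both were lower, at 0.573 (0.442 to 0.736) for CCNE1 and 0.484 (0.306 to 0.740) for CCNE2.

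CDK6 was lower in the induced library in every phase, and CDK4 in none by more than 1.5-fold. CDK6 stood at 88.4, 166 and 133 CPM in neither-phase, S and G2/M cells of the induced library, against 201, 258 and 259 CPM in those of the control library. The induced over control ratio was 0.439 (0.419 to 0.460) in neither phase, 0.641 (0.603 to 0.681) in S and 0.513 (0.492 to 0.534) in G2/M. The highest induced level was below the lowest control level. Within the libraries, S over neither phase was 1.87 (1.76 to 2.00) in induced and 1.28 (1.23 to 1.34) in control cells. CDK4 stood at 37.8, 48.2 and 42.4 CPM in induced and at 38.1, 53.1 and 44.8 CPM in control cells, highest in S in both, and its 3 within-phase intervals all included a ratio of 1.

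The inhibitors had separate patterns. CDKN1A was higher in induced cells of each phase, at 29.4, 28.0 and 30.9 CPM in neither-phase, S and G2/M cells of the induced library and 20.8, 15.4 and 25.3 CPM in those of the control library, and the ratio was largest in S, at 1.82 (1.54 to 2.16). In neither-phase cells its log2 ratio was 0.48, ranged from 0.20 to 0.64 over 11 alternatives and passed 1.5-fold in 3 of them. CDKN1B had its highest level in G2/M in both libraries, at 27.7, 29.8 and 50.5 CPM in induced and 25.8, 26.3 and 47.7 CPM in control cells. G2/M over neither phase was 1.82 (1.68 to 1.98) in induced and 1.85 (1.66 to 2.06) in control cells, and the intervals of its 3 within-phase ratios between libraries all included 1. CDKN2A stood at 530, 444 and 525 CPM in the induced, lowest in S, and at 507, 529 and 527 CPM in the control library.

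**Figure D2:**
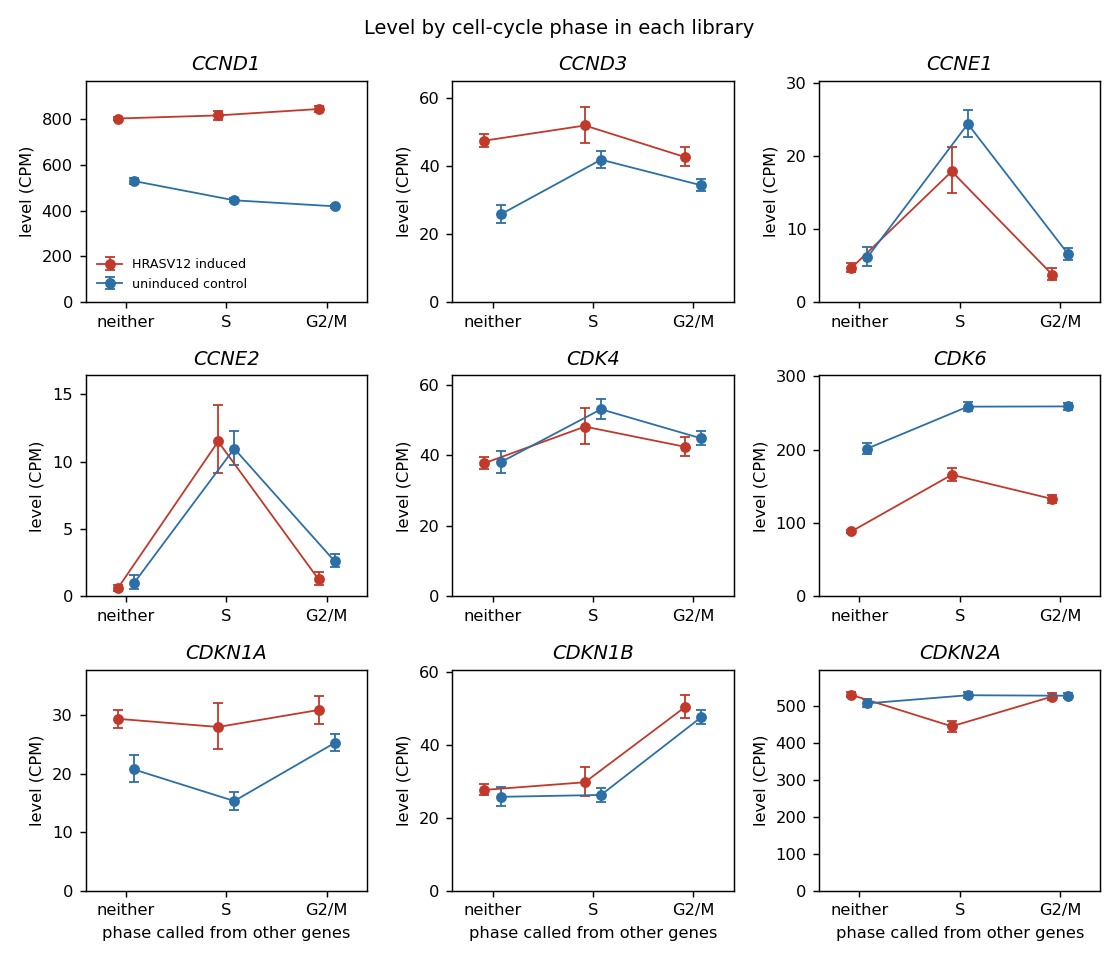
Level in CPM of 9 genes in cells of neither phase, S and G2/M, in the induced (red) and control (blue) library, with exact 95% Poisson intervals. CCNE1 and CCNE2 peak in S and CDKN1B in G2/M in both libraries, whereas CCND1 and CDK6 keep apart between libraries in every phase.

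Genes past 1.5-fold between libraries were counted in each phase. In neither-phase cells 2 of 7 measured genes (CCND1 and CCND3) were higher, where 12.3% of all genes were, and 1 (CDK6) was lower, where 7.08% were. In S the counts were 2 of 9 higher (CCND1 and CDKN1A, background 4.56%) and 1 lower (CDK6, 1.15%). In G2/M they were 1 of 7 higher (CCND1, 5.73%) and 1 lower (CDK6, 2.16%). When the level of each phase was weighted by the phase shares of the control library, 1 of 8 was higher (CCND1, 5.84%) and 1 lower (CDK6, 1.47%). At this common mix CCND1 had a ratio of 1.84 and CDK6 of 0.544. CCNE1 at this mix stood at 8.56 CPM in induced and 12.3 CPM in control cells, a ratio of 0.696, and CCNE2 at 4.48 and 5.02 CPM, a ratio of 0.893. Control levels per phase taken at the phase shares of the induced library gave 0.672 of the control level for CCNE1, 0.501 for CCNE2 and 0.902 for CDK6. With phases scored within each library, CCNE1 also passed 1.5-fold lower at the control mix (log2 ratio -0.97). It did so too with phases scored at 20000 counts (-0.62). Within the quality limit the gene past 1.5-fold lower at the common mix was CCNE1 (log2 ratio -0.65), and CDK6 was not (-0.57, against -0.87).

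**Figure D3:**
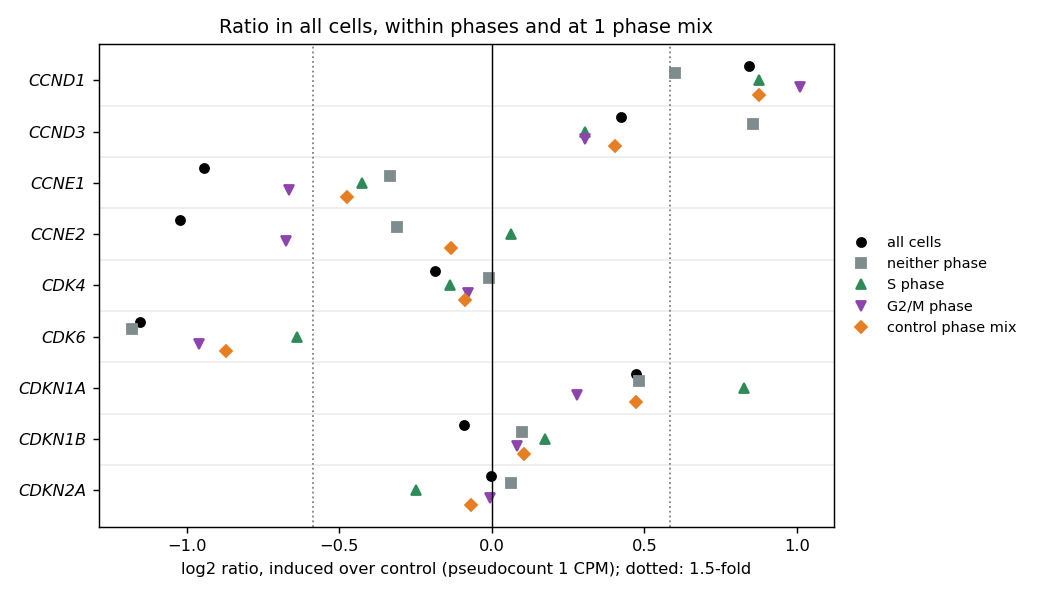
Log2 ratio of induced over control for 9 genes in all cells (black), neither-phase cells (grey), S (green), G2/M (purple) and at the control phase mix (orange), with a pseudocount of 1 CPM and dotted lines at 1.5-fold. CCND1 lies to the right and CDK6 to the left of the lines in all 5 settings, while CCNE1 and CCNE2 are nearer 0 at the common mix than in all cells, and CDK4, CDKN1B and CDKN2A lie nearer 0 than the lines, CDK4 below 0 in all 5 settings, CDKN1B below 0 in all cells and above it in each phase and at the mix, and CDKN2A above 0 in neither-phase cells alone.

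Between phases within a library, 3 of 9 measured genes were at least 1.5-fold higher in S than in neither phase in the induced library (CCNE1, CCNE2 and CDK6), where 16.0% of all genes were. In the control library 3 of 9 were (CCND3, CCNE1 and CCNE2), where 8.34% were. In both libraries CCNE1 and CCNE2 reached 10 CPM in S cells alone. They thus entered these counts only through the phase in which they were high, and their calls are in part set by that floor. In G2/M over neither phase 1 of 7 was higher in each library (CDKN1B), where 10.1% of all genes in induced and 7.70% in control cells were. No gene of the 10 was 1.5-fold lower in S or G2/M than in neither phase, where in the induced library 9.70% of all genes were in S and 6.43% in G2/M, and in the control library 2.85% and 2.82%.

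Most cells of the induced library were above the control median in CCND1, and few were above it in CDK6. The 56 of 562 induced cells highest in CCND1 held 22.1% of its counts, and the 77 of 766 control cells highest in it 23.0%. For CDK6 these shares were 33.2% and 21.0%. The variance of CCND1 over cells was 14.8 times the mean in induced and 8.42 times in control cells. At equal depth the median induced cell had 41 CCND1 counts and the median control cell 21, with 5th to 95th percentiles of 13.1 to 96.9 and 8 to 52. Of 562 induced cells, 463 (82.4%, 79.0 to 85.4) were above the control median and 179 (31.9%, 28.0 to 35.9) above the control 95th percentile. Of those 179 cells, 44 lay outside the quality limit, against 173 of the other 383 induced cells. CDK6 had a median of 4 counts in induced and 12 in control cells, and 227 induced cells (40.4%, 36.3 to 44.6) had fewer than 4, the control 5th percentile, as did 38 of 766 control cells (4.96%). At the other end 71 induced cells (12.6%) were above the control median of CDK6.

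CDKN2A was level in sum but not in spread. Its median was 24 counts in induced and 27 in control cells, with 5th to 95th percentiles of 12 to 49.95 and 15 to 42. Its variance over cells was 10.5 times the mean in induced and 2.32 times the mean in control cells. Both tails were larger in the induced library: 70 cells (12.5%) were below the control 5th percentile and 53 (9.43%) above the control 95th, against 28 (3.66%) and 34 (4.44%) of control cells. Within the quality limit the variance was 7.92 times the mean in induced and 2.17 times in control cells, and without the cells highest in endothelial markers 9.09 and 2.30 times. Of the 53 induced cells in the upper tail, 28 were outside that limit, against 189 of the other 509.

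For the low genes the share of cells with at least 1 count at equal depth is given in place of a median. CDKN1A had a count in 60.3% of induced (56.1 to 64.4) and 42.8% of control cells (39.3 to 46.4), and unthinned in 70.0% and 52.5%. CCNE1 had one in 19.4% and 37.3% of cells, and CCNE2 in 8.36% and 20.1%. Unthinned, these shares were 34.4% and 49.6% for CCNE1 and 12.5% and 28.1% for CCNE2. The line holds no cell type known to lack these genes, so no background share was at hand. CCND2, with a count in 4 of 562 induced and 1 of 766 control cells, shows how low the share of a gene can be here.

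**Figure D4:**
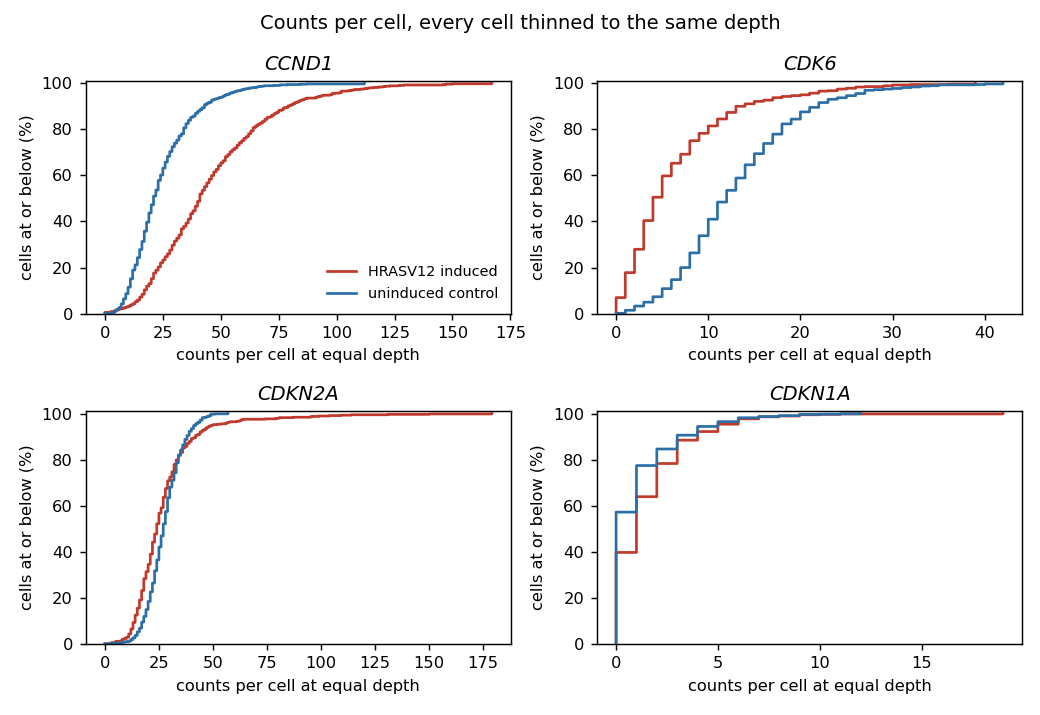
Percent of cells at or below each count per cell for CCND1, CDK6, CDKN2A and CDKN1A, in 562 induced (red) and 766 control (blue) cells thinned to 53000 counts each. The CCND1 curve of induced cells lies to the right (median 41 and 21 counts), that of CDK6 to the left (4 and 12), and the CDKN2A curves cross, with the wider spread in induced cells.

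The relation to cycling was also read the other way, as the share of cells in S or G2/M at each level of a gene. In cells split by CDK6 count into 3 bins within each library, the share was 26.0%, 32.1% and 56.1% of induced cells from the lowest to the highest bin, and 71.0%, 79.1% and 89.3% of control cells. The intervals of the lowest and highest bin did not overlap in either library. For CCND1 the shares were 37.0%, 39.3% and 34.6% in the induced library, with overlapping intervals, and 86.9%, 81.5% and 69.1% in the control library, lowest where CCND1 was highest. For CDKN2A they were 30.9%, 41.6% and 38.8% in induced and 75.3%, 83.9% and 80.0% in control cells, with no steady order.

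Cells with an E cyclin count were more often in S phase than cells without one. With at least 1 CCNE1 count 25.7% of induced cells were in S, against 7.73% with none, and 56.6% of control cells, against 18.5%. Of induced cells with at least 1 CCNE2 count 59.6% (44.3 to 73.6) were in S, against 6.80% of those with none, and in the control library the shares were 72.1% (64.3 to 79.0) and 22.9%. Cells with at least 1 CDKN1B count were in G2/M in 30.5% of induced and 52.8% of control cells, against 9.52% and 26.6% of those with none. A CDKN1A count went with a share in S or G2/M of 37.8% in induced cells, against 35.9% without one, and of 84.5% in control cells, against 75.8%. Induced cells with and without CDKN1A counts thus had overlapping intervals (32.6 to 43.2 and 29.6 to 42.5).

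For the 6 genes with at least 25 CPM in both libraries, the genes most like them over cells were sought among 4734 genes, by Pearson correlation of log2 thinned counts averaged over the libraries. All correlations are descriptions over 562 induced and 766 control cells that share library and depth. CCND1 was most like SCG2, a secretory granule protein (Pearson r 0.39 induced, 0.40 control), and RGS5, a regulator of G protein signalling (0.47 and 0.32). CDK6 was most like TCF12 (0.43 and 0.36) and TCF4 (0.39 and 0.39), a pair of E-box binding factors. CDKN2A was most like PFN1, the actin-binding profilin (0.40 and 0.40), and IGFBP2, a binding protein of insulin-like growth factors (0.36 and 0.31). CCND3 was most like MRPS34 and SRM, and CDK4 most like TOMM40 and PA2G4, all with r of at most 0.28 in either library, which is weak.

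CDKN1B was most like a pair of mitotic genes, KIF11, a motor of the spindle (0.35 and 0.37), and ASPM, a spindle pole protein (0.32 and 0.40). KIF11 is one of the genes that called G2/M, the phase in which CDKN1B was highest in both libraries. The promoter windows are shown together because KIF11 and ASPM ranked as most like CDKN1B over cells, with r from 0.32 to 0.40. Windows are from RefSeq (GRCh38.p14): CDKN1B chr12:12717118-12717417 on the plus strand, KIF11 chr10:92592880-92593179 on the plus strand and ASPM chr1:197146620-197146919 on the minus strand. Capitals mark CCAAT on either strand, the box bound by NF-Y.
CDKN1B promoter: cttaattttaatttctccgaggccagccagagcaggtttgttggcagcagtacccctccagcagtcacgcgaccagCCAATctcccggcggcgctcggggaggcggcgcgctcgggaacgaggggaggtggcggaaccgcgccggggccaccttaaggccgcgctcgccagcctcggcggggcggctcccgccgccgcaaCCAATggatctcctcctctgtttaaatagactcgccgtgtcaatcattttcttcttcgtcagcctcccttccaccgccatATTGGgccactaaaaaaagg
KIF11 promoter: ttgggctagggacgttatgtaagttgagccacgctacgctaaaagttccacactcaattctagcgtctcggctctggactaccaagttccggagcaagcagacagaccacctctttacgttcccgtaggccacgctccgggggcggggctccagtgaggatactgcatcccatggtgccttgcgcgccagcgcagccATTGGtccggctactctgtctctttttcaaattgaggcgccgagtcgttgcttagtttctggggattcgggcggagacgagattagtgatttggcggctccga
ASPM promoter: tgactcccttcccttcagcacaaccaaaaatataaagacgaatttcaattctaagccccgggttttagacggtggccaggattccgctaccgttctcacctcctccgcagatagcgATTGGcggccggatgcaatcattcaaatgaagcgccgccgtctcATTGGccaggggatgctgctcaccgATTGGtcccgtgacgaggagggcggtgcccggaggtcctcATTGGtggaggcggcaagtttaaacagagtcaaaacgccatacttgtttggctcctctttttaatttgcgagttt
CCAAT was found 3 times in the CDKN1B, 1 time in the KIF11 and 4 times in the ASPM window, and at least once in 34.6% of all 35116 windows. The cell cycle homology region (TTTGAA, either strand), often paired with it in G2/M genes, was found once each in KIF11 and ASPM and not in CDKN1B, against 15.2% of all windows. Of the 11 windows of the cyclin, kinase and inhibitor genes, 3 held CCAAT and 0 held TTTGAA.

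Correlations over cells between the 6 genes above 25 CPM in both libraries were weak, from -0.21 to 0.17. CCND1 and CDK6, which differed most between the libraries, had r of -0.02 in induced and -0.08 in control cells. CCND1 and CDK4, a cyclin and its kinase, had r of -0.00 and -0.02. CCND3 and CDK6 had r of -0.21 and -0.14, the lowest of the pairs in both libraries.

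Among the other genes of the inhibitor families, CDKN2B and CDKN2D were higher in the induced library. Of 4 such genes 3 were measured, 2 were higher (10.3% of all genes) and 0 lower by 1.5-fold or more. CDKN2B, which encodes p15 and lies beside CDKN2A, stood at 13.4 CPM in induced and 6.03 CPM in control cells, a ratio of 2.22. In neither-phase cells its ratio was 2.62 (2.12 to 3.27). In S phase the ratio was 0.892, with an interval of 0.620 to 1.26 that included 1, and G2/M cells had one of 1.47 (1.20 to 1.80). CDKN2D, which encodes p19, stood at 50.4 and 30.0 CPM, a ratio of 1.68, and at 46.9 and 17.7 CPM in neither-phase cells. CDKN2C, which encodes p18, stood at 61.1 and 55.9 CPM, and CDKN1C was under the floor, with 78 and 117 counts. In neither-phase cells 3 of 3 were at least 1.5-fold higher (12.3% of all genes), and at the control phase mix 1 of 2 (5.84%). CDKN2B counted as measured through the induced library alone, at 16.2 CPM in its neither-phase cells against 6.17 CPM in control. At the control phase mix it fell under the floor, at 8.94 and 5.91 CPM, so these counts depend in part on that floor.

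Genes that E2F factors are known to switch on were lower in the induced library. Of 29 on the list, 23 were measured, 21 were lower (7.73% of all genes) and 0 higher by 1.5-fold or more, with a median log2 ratio of -0.88, against -0.04 over all measured genes. RBL1, an RB relative, had 482 counts in induced and 1426 in control cells, a ratio of 0.401, and MCM6, a part of the replicative helicase, stood at 17.6 and 39.3 CPM. MYBL2, a transcription factor of cycling cells, at 102 and 139 CPM, and E2F1, at 51.9 and 76.3 CPM, had the ratios nearest to level. In neither-phase cells 7 of 19 were lower (median -0.43, 7.08% of all genes lower), and at the control phase mix 0 of 23 were (median -0.12, 1.47% of all genes lower). Among neither-phase cells MCM6 (7.96 CPM in induced and 17.1 CPM in control) was one of the genes measured through the control library alone. Of the 29 genes 14 also served to call the phases, so the values at a fixed phase are in part set by those calls.

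Other cyclins and kinases were lower in part. Of the 6 other cyclins and kinases, 4 were at least 1.5-fold lower in all cells (7.73% of all genes), with CDK1 at 67.5 CPM in induced and 125 CPM in control cells and CDK2, the partner of the E cyclins, at 6.91 and 12.4 CPM. CCNB2 (83.4 and 115 CPM) and CCNF (30.2 and 43.0 CPM) had the highest ratios. At the control phase mix 0 of 6 were lower (1.47% of all genes), where CDK1 and CCNB2 had served to call the phases. None of the 3 genes of the CDK-activating kinase passed 1.5-fold, where 10.3% of all genes were higher and 7.73% lower. CDK7 had a ratio of 1.20, its cyclin CCNH one of 1.08 and MNAT1 one of 0.825. Of the phosphatases and kinases that act on CDK1 and CDK2, 3 of 5 were lower in all cells (7.73% of all genes). At the control phase mix 0 of 5 were (1.47%), and both counts of 0 at that mix are near this share. CDC25A was lowest, at 9.16 and 20.2 CPM, with a log2 ratio of -0.23 at that mix. CDC25C, which had served to call G2/M, had a ratio of 0.528 in all cells, and the kinases WEE1 and PKMYT1 had ratios of 0.692 and 0.701. RB1 itself stood at 37.6 and 48.1 CPM. Of 7 measured E2F family genes 1 was lower (7.73% of all genes), E2F5, at 6.56 and 10.4 CPM. The highest ratios were those of E2F6 (1.01) and E2F4 (0.928). In all cells CDK2, CDC25A, CDC25C and E2F5 reached 10 CPM in the control library alone, so their place in these counts depends on that floor.

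Among 9 measured genes that serve the breakdown of cyclins and inhibitors, 2 were lower (7.73% of all genes) and 0 higher by 1.5-fold or more, and at the control phase mix 0 of 9 were lower (1.47%). SKP2, which marks p27 for breakdown, stood at 36.9 CPM in induced and 75.8 CPM in control cells, and DTL, which does so for p21, at 26.3 and 57.8 CPM. SKP2 had a ratio of 0.457 in neither-phase, 0.760 in S and 0.691 in G2/M cells and of 0.683 at the control phase mix, past 1.5-fold in neither-phase cells alone. Of the 11 genes on this list 3, DTL among them, had served to call the phases, so values at a fixed phase are in part set by those calls. SKP1 (624 and 461 CPM) and FBXW7 (30.2 and 22.8 CPM), which takes part in the breakdown of cyclin E, had the highest ratios.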

How the data were processed

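Libraries were droplet 3′ libraries, per the labels. The authors deposited counts, whole numbers per gene and cell, with an annotation that gives the type of each cell and its percent of mitochondrial counts. Per the submitters' processing notes kallisto and bustools were used. Versions, build, annotation and filters were not given in the sources used here. Annotation rows carry no cell names and were matched by order to the 1622 cells, whose totals differed by at most 192 counts. All 1622 cells are marked singlets, and the libraries share 0 barcodes. The table held 36027 genes, 70 of them with no count.

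Counts were summed per library or phase and scaled to CPM. Log2 ratios are induced over control with a pseudocount of 1 CPM, which understates low genes. A gene counted as measured from 10 CPM in 1 of the 2 libraries upward. Depth was 17543 to 599978 counts per induced and 24973 to 245837 per control cell. A count of 0 allows up to 3 counts, or 0.0373 CPM (induced) and 0.0315 CPM (control). Intervals at 95% are exact Poisson (levels), conditional (ratios) and Clopper-Pearson (shares). Cells are not replicates, so no test was run. Values per cell used cells thinned to 53000 counts, leaving out 104 induced and 190 control cells, and phases came from scanpy 1.11.5. Scaling alternatives used edgeR 4.0.16 and DESeq2 1.42.0. Calculations were checked on simulated data. The genes, lists and settings were chosen with earlier results of these data known. Named are the 10 genes, the 2 highest and 2 lowest of each pathway list printed, and the 2 genes most like each; 1 pathway list is not reported here. CDKN1C, CCNA2, HRAS and the markers were named outside that rule, after their values were seen. Reads shared by several genes may be lost or split in counting.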

Additional observations from a re-analysis of the deposited data

Results flagged for a closer look

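Genes are given here whose pooled counts went one way between phases in one library and the other way in the other. Both intervals, for counting error only, were clear of 1. The difference between the libraries was not tested. CCND1 in G2/M over neither-phase cells had a ratio of 1.05 in induced and 0.791 in control cells, and within the quality limit (mitochondrial percent and MALAT1 above the control 5th percentiles) these were 0.927 and 0.797, no longer in opposite directions. CCND1 in G2/M over S had a ratio of 1.03 in induced and 0.941 in control cells, and 1.08 and 0.932 within that limit. At equal depth the mean CCND1 count per induced cell was 46.3 in neither phase, 44.3 in S and 44.0 in G2/M. By these means G2/M was not higher than either, so both CCND1 contrasts rest on pooled counts. CCND3 in G2/M over neither-phase cells had a ratio of 0.898 in induced and 1.33 in control cells, and within the limit 0.986 (0.870 to 1.12) and 1.34. CDKN2A in S over neither-phase cells had a ratio of 0.840 in induced and 1.04 in control cells, and 0.839 and 1.05 within the limit.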

How the results depend on the processing

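The calls were recomputed under 13 alternatives for all cells and 11 for phases, and 0 log2 ratios of a called gene reversed. CCND1 ranged from 0.75 to 1.04 and CDK6 from -1.25 to -0.83 over the 13, both past 1.5-fold in each. TMM factors moved the median of all genes by 0.11 and DESeq2 size factors by 0.16, and with the DESeq2 factors 2 genes were higher in all cells, CDKN1A joining CCND1, and 2 at the control phase mix. A filter at 50 CPM left 3 genes, 1 of them lower, and 13 of 15 E2F targets lower, and with no filter beyond 1 count 3 of 10 genes and 27 of 29 E2F targets were lower. In neither-phase cells 3 genes were higher with TMM factors, with DESeq2 factors and without the cells highest in endothelial markers, against 1 with totals without ribosomal protein and mitochondrial genes and 1 within the quality limit on mitochondrial percent and MALAT1. At the control phase mix 2 genes were lower with phases scored at 20000 counts and 2 with phases scored within each library. The causes were not tested. The share of induced cells in S or G2/M was 37.0%, and 46.7% at 20000 counts, 54.8% scored within each library and 53.4% from summed lists. The share of control cells, 79.5% with the main scoring, is not given here for these alternatives. CDKN1B turned direction in 4 and CDKN2A in 3 of the 13. No paired analysis was possible because each group has 1 library. Depth limits CCND2 (8 and 1 counts) and CCNE2 in neither-phase cells (28 and 15 counts), and leaving out a replicate was not possible.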
